A study of Spongilla lacustris with 18 samples.

Results

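Synoviolin and CUL9 are ubiquitin ligases, and 5 of the 39562 genes in the count table of the freshwater sponge Spongilla lacustris carry one of these names. The genes c97836-g1, named synoviolin through its orthologous group, and c80372-g1, named CUL9, were picked by identifier with results of these libraries known, and are taken to have been picked for their difference between tryptamine and DMSO at 4 h. The other 3 were found by a search of the annotation for synoviolin or CUL9: c102386-g2 (SYVN1), c101895-g2 (CUL9) and c100712-g1 (CUL9,CUL7). All 5 passed the filter on low counts, which left 24125 genes. For c97836-g1 and c80372-g1, every comparison that uses a 4 h library is given as a description with no test, and the tests are kept to 1 h and recovery. Some of those tests share the DMSO libraries of 1 h with the values that may have chosen the genes. The model estimates the spread of a gene from all 6 groups, so the spread of the 4 h libraries also enters the SEs and p-values at 1 h and recovery.

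The sponges were wild-type juveniles grown in M-medium for 9 days at 18 °C, and polyA RNA was sequenced from whole bodies. One set of groups received 37.5 µM tryptamine, a trace amine, for 1 h, for 4 h, or for 4 h followed by washout and 24 h of recovery. The control groups received 0.03% DMSO as vehicle on the same schedules. The labels give no DMSO content for the tryptamine groups, so the groups may differ in DMSO as well as in tryptamine. Each of the 6 groups had 3 libraries, and the labels do not say that replicates came from separate cultures, so p-values measure only the spread between these samples, which may be technical. In whole bodies, fewer cells of a type and less RNA per cell cannot be told apart.

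Synoviolin, also called HRD1 or SYVN1, is a RING-type ubiquitin ligase of the endoplasmic reticulum (ER) membrane in mammals and yeast. With SEL1L, the derlins, the lectins OS9 and ERLEC1, the conjugating enzymes UBE2G2 and UBE2J1 and the ATPase VCP, it moves misfolded proteins out of the ER for destruction by the proteasome, a route called ER-associated degradation (ERAD). CUL9, also called PARC, is an unusual human cullin that carries its own RING-between-RING ligase domain, is related to CUL7, and is known for binding p53 in the cytoplasm.

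The names differ in what they rest on. The gene c97836-g1 has a length of 1621 bases in 1 contig and no gene symbol, whereas c102386-g2, with 4169 bases in 3 contigs, is tagged 1-to-1 with SYVN1. The gene c80372-g1 has a length of 1175 bases in 1 contig and is tagged 4-to-1 with CUL9, the only gene so tagged. The genes c101895-g2 (9323 bases, 9 contigs, 1-to-1 CUL9) and c100712-g1 (10248 bases, 18 contigs, 1-to-2 CUL9,CUL7) are several times as long. The deposited table does not define these tags, and a shared name states similarity to a vertebrate gene, not equal function. Read pairs that matched several places were not counted, so levels of near-identical copies would be too low.

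Levels are given as CPM, the read pairs of a gene relative to the size of its library, scaled by edgeR's trimmed mean of M-values (TMM). The libraries held 11379345 to 23769406 counted pairs, of which 723 to 17619 fell on c97836-g1 and 110 to 1854 on c80372-g1. Several libraries of 4 h stood apart from the rest. On the first principal component (27.1% of variance), the tryptamine 4 h libraries lay at -10.5, 48.7 and 24.3, the DMSO 4 h libraries at 35.4, 64.4 and 56.1, and all libraries of the other groups between -47.0 and 13.8. Marker genes of choanocytes and archaeocytes were present in every library (10 of 10 symbols found for each), and 5 of 10 contractile pinacocyte symbols were found. At 4 h the summed marker levels overlapped: choanocyte markers summed to 445 to 611 CPM with tryptamine and 487 to 529 CPM with DMSO, archaeocyte markers to 1233 to 1849 CPM with tryptamine and 1421 to 1676 CPM with DMSO, and pinacocyte markers to 4371 to 6012 CPM with tryptamine and 5025 to 5228 CPM with DMSO.

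At 4 h the synoviolin-named gene c97836-g1 was far lower in tryptamine sponges than in DMSO sponges. It had 125, 126 and 116 CPM in the tryptamine libraries, against 551, 1662 and 1035 CPM in the DMSO libraries. All tryptamine libraries lay below all DMSO libraries, as for 7.34% of tested genes at 4 h, and the DMSO libraries were spread over 3.02-fold while the tryptamine libraries were spread over 1.09-fold. The fitted log2 difference was -3.14 (SE 0.32), an 8.82-fold lower level with tryptamine. The CUL9-named gene c80372-g1 had 13.8, 21.1 and 18.5 CPM in the tryptamine libraries, against 69.7, 159 and 131 CPM in the DMSO libraries. Its groups were likewise apart, with a log2 difference of -2.75 (SE 0.29), a 6.75-fold lower level with tryptamine. Over all tested genes, 1.5% passed an adjusted p of 0.05 in this comparison and 1.27% did so as lower with tryptamine, in edgeR's quasi-likelihood test with Benjamini-Hochberg adjustment. These genes are taken to have been picked for this difference, so their place among those genes is no finding.

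Between 1 h and 4 h the larger differences were in DMSO sponges. In DMSO sponges c97836-g1 averaged 104 ± 7.34 CPM at 1 h, 1083 ± 557 CPM at 4 h and 140 ± 43.2 CPM after recovery (SD, n = 3 each). In tryptamine sponges it averaged 61.9 ± 6.99 CPM at 1 h, 123 ± 5.48 CPM at 4 h and 114 ± 27.5 CPM after recovery. The log2 difference of 4 h against 1 h was 0.99 (SE 0.30) in tryptamine sponges and 3.38 (SE 0.33) in DMSO sponges. For c80372-g1 the DMSO averages were 11.1 ± 2.41 CPM at 1 h, 120 ± 45.6 CPM at 4 h and 25.5 ± 5.90 CPM after recovery. Its tryptamine averages were 9.81 ± 2.28 CPM at 1 h, 17.8 ± 3.72 CPM at 4 h and 18.6 ± 4.23 CPM after recovery. The log2 difference of 4 h against 1 h was 0.85 (SE 0.29) in tryptamine sponges and 3.42 (SE 0.30) in DMSO sponges. For both genes the libraries of 4 h lay above those of 1 h within each treatment, as for 7.52% of tested genes in tryptamine sponges and 10.2% in DMSO sponges. Both were highest in DMSO sponges at 4 h, and the DMSO sponges sampled after recovery had lower levels again.

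**Figure D1:**
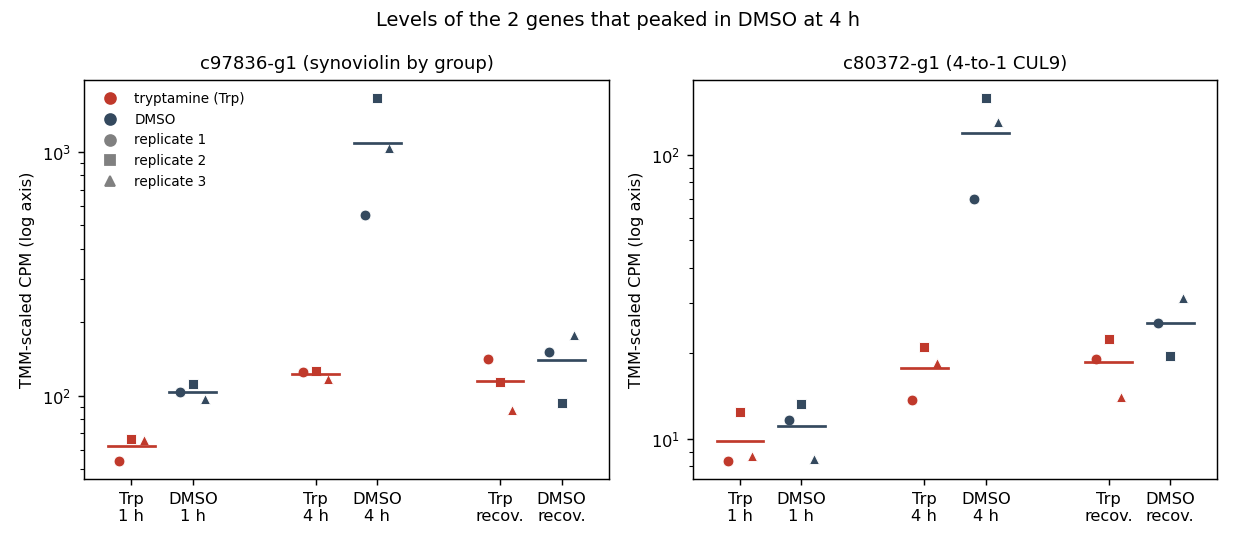
TMM-scaled CPM (log axis) of c97836-g1 and c80372-g1 in each of 18 libraries, with tryptamine (red) left of DMSO (dark) at 1 h, 4 h and recovery; symbols mark replicate numbers and lines the mean of 3 libraries. The DMSO 4 h libraries, at 551 to 1662 CPM for c97836-g1 and 69.7 to 159 CPM for c80372-g1, lie above all 15 other libraries.

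Within the DMSO 4 h group both genes had the same order of libraries: replicate 1 lowest, replicate 3 next and replicate 2 highest. The same order held for the positions of these libraries on the first principal component given above. The part of this shared variation in the result was not tested. On that component replicates 1, 3 and 2 lay at -10.5, 24.3 and 48.7 with tryptamine and at 35.4, 56.1 and 64.4 with DMSO. In the same order the tryptamine libraries had 125, 116 and 126 CPM of c97836-g1 and 13.8, 18.5 and 21.1 CPM of c80372-g1. The DMSO libraries had 551, 1035 and 1662 CPM of c97836-g1 and 69.7, 131 and 159 CPM of c80372-g1. Leaving out each 4 h library in turn gave log2 differences of -3.46 to -2.69 for c97836-g1 and -3.03 to -2.50 for c80372-g1.

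Per kilobase of gene length, c97836-g1 averaged 75.7 CPM in tryptamine sponges and 668 CPM in DMSO sponges at 4 h, which placed it at rank 1990 of 24125 genes with tryptamine and at rank 198 with DMSO. The gene c80372-g1 averaged 15.1 CPM per kilobase with tryptamine and 102 CPM per kilobase with DMSO at 4 h, at rank 7209 with tryptamine and rank 1572 with DMSO. At 1 h c80372-g1 was at rank 10873 with tryptamine and 9894 with DMSO, in the middle of the tested genes. Over the 18 libraries the length-scaled level of c97836-g1 was 3.45 to 8.26 times that of c80372-g1.

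Ordered by mean level, c97836-g1 ran from tryptamine 1 h at the low end through DMSO 1 h, tryptamine recovery, tryptamine 4 h and DMSO recovery to DMSO 4 h. The libraries of tryptamine 1 h (53.8 to 66.2 CPM) lay below those of DMSO 1 h (96.5 to 111 CPM). The next groups overlapped their neighbours in this order, with 87.0 to 142 CPM in tryptamine recovery, 116 to 126 CPM in tryptamine 4 h and 93.2 to 178 CPM in DMSO recovery. For c80372-g1 the order was tryptamine 1 h, DMSO 1 h, tryptamine 4 h, tryptamine recovery, DMSO recovery and DMSO 4 h. Here tryptamine 1 h (8.34 to 12.4 CPM) and DMSO 1 h (8.47 to 13.2 CPM) overlapped, and the libraries of tryptamine 4 h began just above them at 13.8 CPM. The recovery groups overlapped each other, with 14.1 to 22.5 CPM in tryptamine sponges and 19.6 to 31.4 CPM in DMSO sponges.

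After 1 h of exposure, neither gene passed the test between tryptamine and DMSO. For c97836-g1 the tryptamine libraries had 53.8, 66.2 and 65.6 CPM, against 103, 111 and 96.5 CPM in the DMSO libraries. All 3 tryptamine libraries were below all 3 DMSO libraries, as was the case for 6.18% of tested genes at 1 h. The log2 difference was -0.74 (SE 0.30, 95% interval -1.40 to -0.09), with an unadjusted p of 0.0253 and an adjusted p of 0.744 in edgeR's quasi-likelihood test. The SE draws on the spread within all 6 groups. For c97836-g1 the SD was 51.5% of the mean in DMSO 4 h, 11.3% in tryptamine 1 h and 7.08% in DMSO 1 h. For c80372-g1 the tryptamine libraries had 8.34, 12.4 and 8.67 CPM, against 11.6, 13.2 and 8.47 CPM in the DMSO libraries. These groups overlapped, with a log2 difference of -0.18 (SE 0.29, 95% interval -0.81 to 0.45) and an adjusted p of 0.931 in edgeR. No gene of the table (0%) passed at 1 h with edgeR, where 6.44% had an unadjusted p under 0.05. At 1 h limma-voom called 0 genes, DESeq2 called 16, and edgeR with the replicate number as a block called 7.

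After washout and recovery, neither gene differed beyond the spread between libraries. The gene c97836-g1 had 142, 114 and 87.0 CPM in tryptamine sponges, against 150, 93.2 and 178 CPM in DMSO sponges. The groups overlapped, with a log2 difference of -0.30 (SE 0.30, 95% interval -0.95 to 0.35) and an adjusted p of 0.669 in edgeR's test. The gene c80372-g1 had 19.2, 22.5 and 14.1 CPM in tryptamine sponges, against 25.6, 19.6 and 31.4 CPM in DMSO sponges. Its log2 difference was -0.46 (SE 0.28, 95% interval -1.07 to 0.15), with an adjusted p of 0.424 in edgeR. In this comparison 1.86% of tested genes passed. The change of the tryptamine effect between 1 h and recovery was 0.45 (SE 0.42, adjusted p = 0.847, edgeR) for c97836-g1 and -0.28 (SE 0.40, adjusted p = 0.914) for c80372-g1 on the log2 scale.

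The recovery libraries were set against those of 1 h within each treatment, which asks whether the genes were back at their early level about a day later. In tryptamine sponges c97836-g1 was 0.89 higher on the log2 scale after recovery (SE 0.30), with an unadjusted p of 0.00982 and an adjusted p of 0.228 in edgeR. In the same sponges c80372-g1 was 0.92 higher (SE 0.29), with an unadjusted p of 0.00526 and an adjusted p of 0.183. For both genes all 3 recovery libraries were above all 3 libraries of 1 h, as for 7.26% of tested genes, and 0.29% of genes passed the test. With the replicate number as a block, 229 genes passed in place of 70, and neither gene was among them.

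In DMSO sponges c80372-g1 had 25.6, 19.6 and 31.4 CPM after recovery, against 11.6, 13.2 and 8.47 CPM at 1 h. These groups did not overlap, which held in the same direction for 11.9% of tested genes. The log2 difference was 1.20 (SE 0.28, 95% interval 0.58 to 1.81) with an unadjusted p of 0.000563, and it missed the threshold with an adjusted p of 0.0651 in edgeR. It passed with DESeq2 (adjusted p = 0.00852) and with the compared groups fitted alone (adjusted p = 0.00995), and over all alternatives the adjusted p ran from 0.00852 to 0.275. The gene c97836-g1 was 0.44 higher after recovery in DMSO sponges (SE 0.30, adjusted p = 0.564, edgeR), and its libraries of 93.2 to 178 CPM overlapped those of 1 h. Among all genes 0.535% passed.

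**Figure D2:**
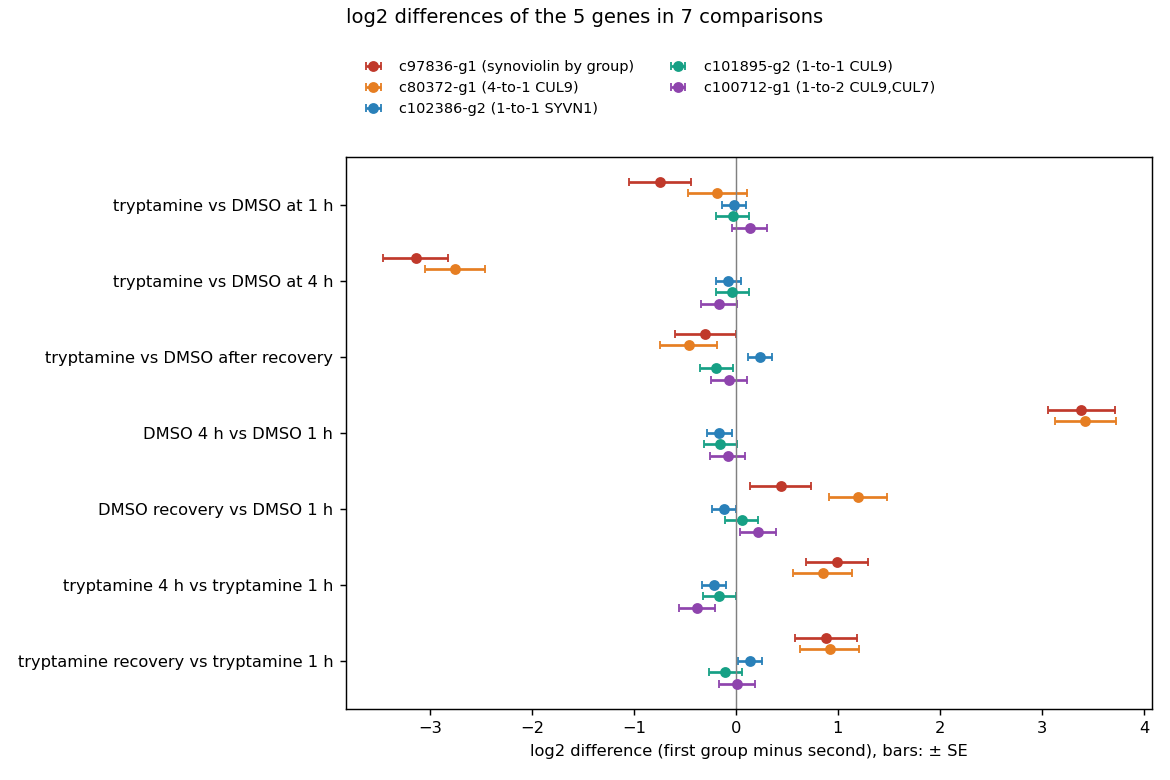
Fitted log2 differences (first group minus second) of the 5 genes in 7 comparisons, with bars of ± SE from edgeR. The differences of c97836-g1 and c80372-g1 that use 4 h libraries, -3.14 and -2.75 for tryptamine against DMSO, are taken to have chosen these genes and carry no test; the other 3 genes lie between -0.38 and 0.24.

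The 1-to-1 SYVN1 gene c102386-g2 had no peak of that size. It had 197, 156 and 161 CPM in tryptamine sponges at 4 h, against 196, 170 and 175 CPM in DMSO sponges. The groups overlapped, and the log2 difference was -0.07 (SE 0.12, 95% interval -0.33 to 0.19, adjusted p = 0.893, edgeR). Its DMSO libraries of 4 h were 0.16 lower than those of 1 h on the log2 scale (SE 0.12, adjusted p = 0.608), and 3.86% of tested genes passed in that comparison. At 1 h its log2 difference between tryptamine and DMSO was -0.02 (adjusted p = 0.986). After recovery it had 202, 237 and 219 CPM with tryptamine, against 178, 191 and 189 CPM with DMSO. These groups did not overlap, as for 23.9% of tested genes, and the log2 difference of 0.24 (SE 0.12, adjusted p = 0.320, edgeR) did not pass.

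The 1-to-1 CUL9 gene c101895-g2 likewise differed at 4 h by less than its spread between libraries. It had 250, 219 and 228 CPM in tryptamine sponges, against 223, 186 and 307 CPM in DMSO sponges. The log2 difference was -0.04 (SE 0.16, 95% interval -0.39 to 0.31, adjusted p = 0.970, edgeR), and at 1 h it was -0.03 (adjusted p = 0.981). After recovery its libraries had 236, 242 and 248 CPM with tryptamine, against 282, 267 and 280 CPM with DMSO. The groups were apart, as for 23.9% of tested genes, and the log2 difference of -0.19 (SE 0.16, adjusted p = 0.592, edgeR) did not pass.

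The gene c100712-g1, tagged with both CUL9 and CUL7, a cullin that forms a ligase with FBXW8 in mammals, was the lowest of the 3 genes found by name. It had 55.5, 33.3 and 52.9 CPM in tryptamine sponges at 4 h, against 51.8, 43.7 and 63.5 CPM in DMSO sponges. The log2 difference was -0.17 (SE 0.17, 95% interval -0.55 to 0.21, adjusted p = 0.801, edgeR). At 1 h it was 0.14 (adjusted p = 0.911) and after recovery -0.07 (adjusted p = 0.886). Its tryptamine libraries of 4 h lay below those of 1 h (56.7 to 64.3 CPM), as 7.06% of tested genes did. The log2 difference of -0.38 (SE 0.17) there had an adjusted p of 0.365, and 0.348% of genes passed.

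**Figure D3:**
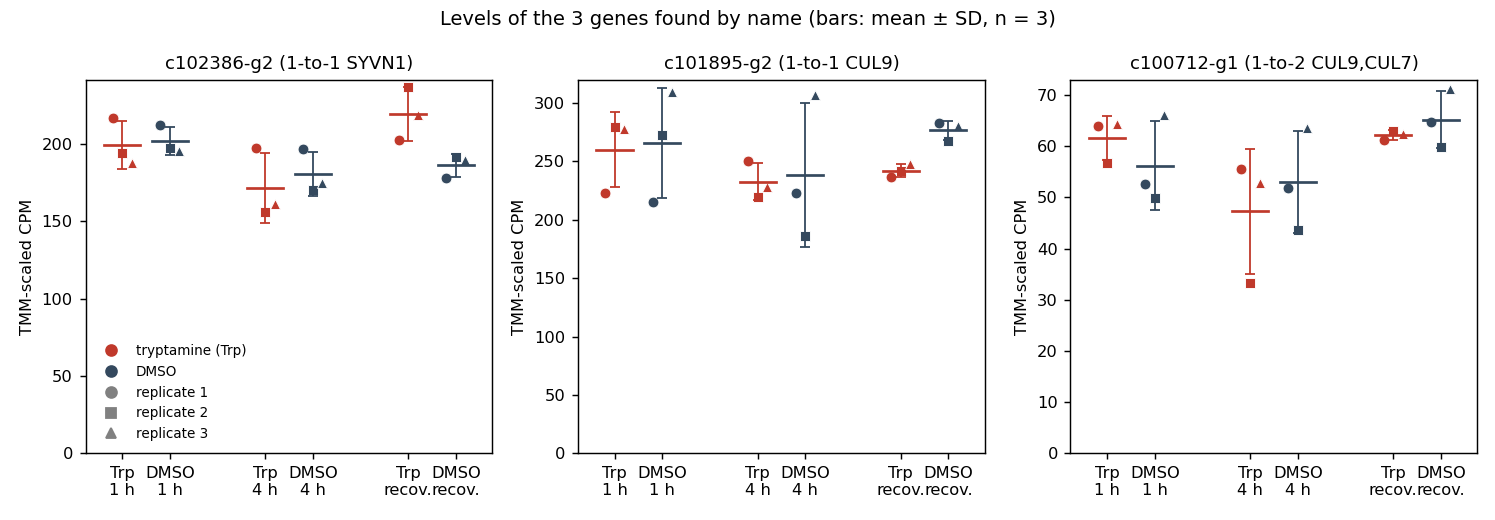
TMM-scaled CPM (axis from 0) of the 3 genes found by name in each library, with tryptamine (red) left of DMSO (dark) at 1 h, 4 h and recovery; lines and bars give the mean ± SD of 3 libraries. None of the 3 has its DMSO 4 h libraries above the other groups, and c102386-g2 averaged 171 CPM with tryptamine and 180.4 CPM with DMSO at 4 h.

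Because each pair of genes comes from the same libraries, their ratio does not depend on library scaling. Per length, c97836-g1 stood at 1.64 to 2.08 times the level of c102386-g2 in tryptamine libraries at 4 h and at 7.21 to 25.2 times in DMSO libraries. At 1 h the ratio was 0.639 to 0.901 in tryptamine libraries and 1.25 to 1.45 in DMSO libraries. After recovery it was 1.02 to 1.81 in tryptamine libraries and 1.25 to 2.42 in DMSO libraries. By these length-scaled levels c97836-g1 was the lower one in all 3 tryptamine libraries of 1 h and the higher one in the 15 others. That order rests on the length scaling, with lengths from 1 contig for c97836-g1 and 3 contigs for c102386-g2. In CPM without length scaling, c97836-g1 was the higher one only in the DMSO libraries of 4 h. For the CUL9 names, c80372-g1 stood at 0.436 to 0.763 times the length-scaled level of c101895-g2 in tryptamine libraries at 4 h and at 2.48 to 6.76 times in DMSO libraries. In the 12 libraries of 1 h and recovery this ratio stayed between 0.217 and 0.889. In CPM without length scaling, c80372-g1 was below c101895-g2 in every library.

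**Figure D4:**
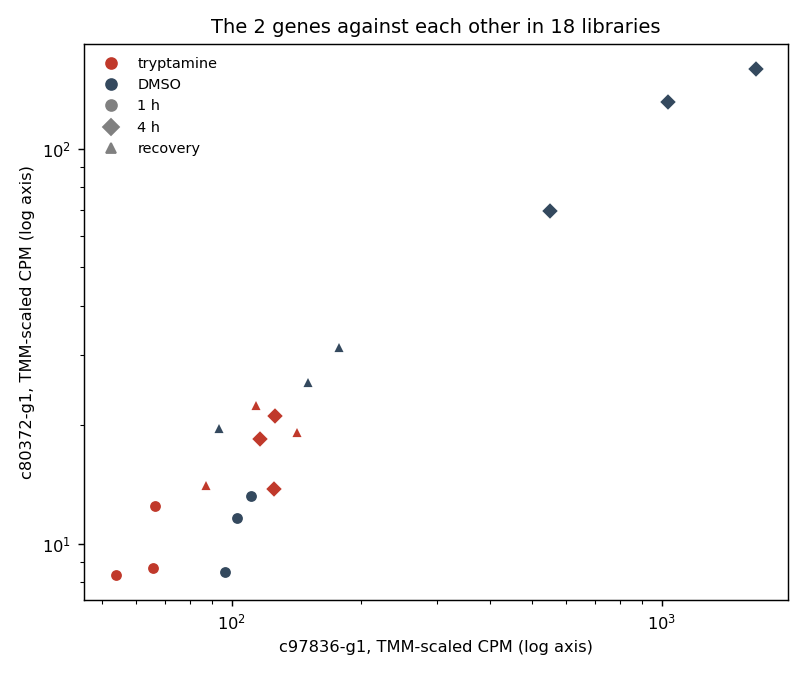
TMM-scaled CPM of c80372-g1 against c97836-g1 in 18 libraries (both axes log), colored by treatment and shaped by time. The 3 DMSO 4 h libraries sit apart at the upper right, and c97836-g1 reaches at most 178 CPM in the 15 others.

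The 2 genes followed each other also outside the 4 h libraries. Pearson's r of their log2 levels was 0.97 over 18 libraries, a value that the separate DMSO 4 h libraries carry, and 0.82 over the 12 libraries of 1 h and recovery. For deviations from the group means over those 12 libraries it was 0.74. With the 3 genes found by name, r ranged from -0.40 to -0.22 over 18 libraries and from -0.22 to 0.26 over the 12 libraries. These values are descriptions of libraries that share depth and scaling, and no test is attached.

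Among genes with a usable name, the ones most like c97836-g1 over 18 libraries were c87469-g1, named after the ubiquitin ligase TRIM2 (r = 0.98), c80372-g1 itself, c100043-g1 with a poly(ADP-ribose) polymerase catalytic domain (0.96), and c90297-g1 (IDO1,IDO2), whose human relatives break down tryptophan (0.96). Next were c97826-g1 (TCEA family, transcription elongation, 0.96) and c101012-g1 (TTC28, 0.95). Those most like c80372-g1 were again the TRIM2-named gene (0.98), c91600-g2 with a poly(ADP-ribose) polymerase domain (0.97), c110325-g1, named after the RNA helicase DHX58, a virus RNA sensor in vertebrates (0.97), c97836-g1, c103838-g4, named after the tryptophan-tRNA ligase WARS (0.96), and c96662-g1, a ribosomal protein by orthologous group (0.96). The TRIM2-named gene averaged 22.03 CPM in tryptamine sponges and 407 CPM in DMSO sponges at 4 h. In all, 137 genes had r above 0.9 with c97836-g1, of which 34 were named, and 115 had it with c80372-g1, of which 27 were named. Of the 24125 tested genes, 9331 had a usable name. Both c97836-g1 and c80372-g1 peaked in the DMSO libraries of 4 h, which are taken to have helped choose them. A high r over 18 libraries can therefore come from a shared peak there alone, and these counts are descriptions with no test.

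Over the 12 libraries of 1 h and recovery the order changed in part. The 6 named genes most like c97836-g1 were then the TRIM2-named gene (r = 0.94), c91600-g2 (0.92), c102229-g2 (TOMM34,SPAG1, 0.94), c103499-g1 (a solute carrier, 0.90), c101710-g1 (TSPAN11, 0.89) and c95436-g1 (RAB26, 0.89). Most like c80372-g1 were c96900-g1 (SDS,SDSL, serine dehydratase, 0.96), c104488-g2 (an ankyrin repeat protein, 0.94), the DHX58-named gene (0.94), c91600-g2 (0.93), the WARS-named gene (0.93) and c89516-g1 (USP15, a deubiquitinase, 0.92). Genes with r above 0.9 numbered 16 for c97836-g1 and 38 for c80372-g1 over these libraries.

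The partners of synoviolin in ERAD had small differences at 4 h, none of which passed. Of 34 tested genes on the ERAD list, 0 passed at 4 h with edgeR, 1 had an unadjusted p under 0.05 (11.7% of all tested genes had), and DESeq2 and limma-voom also called 0. The median log2 difference between tryptamine and DMSO was 0.03, beside 0.00 over all tested genes. The membrane scaffold SEL1L,SEL1L2 (c104356-g1) averaged 77.3 ± 12.7 CPM with tryptamine and 79.2 ± 8.06 CPM with DMSO at 4 h (SD, n = 3 each), a log2 difference of -0.03. The gene c101982-g1 carries the symbol VCP, but its orthologous group is titled spermatogenesis associated 5, so it is uncertain that it is the ATPase of ERAD. It averaged 1087 ± 49.0 CPM with tryptamine and 1196 ± 251 CPM with DMSO, a log2 difference of -0.14. The derlin DERL1 (c99345-g1) had a log2 difference of -0.29 (SE 0.18), and the lectins ERLEC1 (c100891-g1) and OS9 (c100614-g1) had -0.11 and 0.41. The value of OS9 was the nearest to passing on this list, with 13.9 ± 0.676 CPM with tryptamine and 10.4 ± 1.26 CPM with DMSO (adjusted p = 0.158, edgeR). The conjugating enzymes UBE2G2 (c101456-g1) and UBE2J1 (c98466-g1) had 0.07 and -0.07, HERPUD2,HERPUD1 (c102933-g1) had 0.06 with 1.38 ± 0.185 CPM with tryptamine and 1.29 ± 0.672 CPM with DMSO, and UBXN6 (c102125-g1), a VCP cofactor, had 0.27 (SE 0.14). A second SEL1L-named gene (c90771-g1) averaged 1.17 ± 0.577 CPM with tryptamine and 0.726 ± 0.258 CPM with DMSO, with a log2 difference of 0.64 (SE 0.46, adjusted p = 0.654).

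After recovery 27 of these 34 genes had a positive difference and the list's median was 0.16, beside -0.03 over all tested genes. None of the 34 passed with edgeR. An unadjusted p under 0.05 was found for 10 of the 34, a larger share than the 17.2% of all tested genes. On this list limma-voom called 0 genes and DESeq2 called 3, where DESeq2 called 4.78% of all tested genes. Archaeocyte markers also had mostly positive values after recovery, in 9 of 11 genes with a median of 0.26, and 5 had an unadjusted p under 0.05. They summed to 1262 to 1685 CPM with tryptamine and 1389 to 1581 CPM with DMSO. Choanocyte markers had positive values in 5 of 11 genes, with a median of -0.04 and 2 at an unadjusted p under 0.05. Pinacocyte markers had positive values in 1 of 7 genes, with a median of -0.11 and 0 at an unadjusted p under 0.05. The part of cell types in the list's values was not tested. The channel subunit gene SEC61A1,SEC61A2 (c101738-g2) averaged 756 ± 88.2 CPM with tryptamine and 543 ± 25.5 CPM with DMSO, a log2 difference of 0.48 (SE 0.14, adjusted p = 0.0732, edgeR). The gene CCDC47 (c103774-g1), which works beside that channel in mammals, averaged 9.27 ± 0.578 CPM with tryptamine and 5.45 ± 0.806 CPM with DMSO, a log2 difference of 0.76 (SE 0.22, adjusted p = 0.0779). At 1 h the list's median was -0.01.

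Of 10 tested genes for other ER membrane ligases, 0 passed at 4 h with edgeR or limma-voom, and the median log2 difference was 0.06. An unadjusted p under 0.05 was found for 1 gene, beside 11.7% of all tested genes. DESeq2 called 1, where it called 2.51% of all tested genes. The nearest was RNF170 (c91597-g1), a ligase of IP3 receptors in mammals, with 6.98 ± 0.906 CPM with tryptamine and 4.37 ± 0.489 CPM with DMSO (log2 difference 0.68, SE 0.18, adjusted p = 0.0668). It passed with the replicate number as a block (adjusted p = 0.0472) and with DESeq2 (adjusted p = 0.0400), and over its alternatives the adjusted p ran from 0.0400 to 0.337. The gene RNF185,RNF5 (c95835-g1) had 0.16 at 4 h. After recovery the median was -0.04.

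On the list of the unfolded protein response, which answers misfolded proteins in the ER, 20 genes were tested. At 4 h 0 passed with edgeR, limma-voom called 0, and the median was 0.00. An unadjusted p under 0.05 was found for 3, beside 11.7% of all tested genes. DESeq2 called 1, where it called 2.51% of all tested genes. After recovery 1 of the 20 genes passed as higher with tryptamine and 0 as lower, where 1.86% of all tested genes passed. The list's median was 0.29, with positive values in 15 and a range of -0.55 to 0.98. An unadjusted p under 0.05 in edgeR's test was found for 8 of the 20, a larger share than the 17.2% of all tested genes. The marker medians after recovery given above were 0.26 for archaeocytes, -0.04 for choanocytes and -0.11 for pinacocytes. The part of cell types in these values was not tested either. The higher gene was HSP90B1 (c103368-g1), the ER chaperone also called GRP94, with 1126 ± 235 CPM with tryptamine and 649.8 ± 89.5 CPM with DMSO (log2 difference 0.79, SE 0.20, adjusted p = 0.0462, edgeR). This call was lost with median-of-ratios scaling (adjusted p = 0.0521), with non-robust dispersions (0.0555), with the length trend removed (0.0602) and without tryptamine replicate 2 or 3 or any of the 3 DMSO replicates (0.0620 to 0.200). Over all its alternatives the adjusted p ran from 0.0123 to 0.200, and DESeq2 called 7 genes of this list, beside 4.78% of all tested genes.

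The cullin-RING ligases, in which a cullin such as CUL1 or CUL3 joins a RING protein to a substrate adaptor and is switched on by attachment of NEDD8, gave no call at 4 h. Of 34 tested genes 0 passed with edgeR, and 4 had an unadjusted p under 0.05, beside 11.7% of all tested genes. DESeq2 and limma-voom called 0, and the list's median log2 difference was 0.09. The cullin CUL3 (c104414-g1) averaged 218 ± 11.8 CPM with tryptamine and 203 ± 10.7 CPM with DMSO, a log2 difference of 0.11 (SE 0.11). The RING subunit RBX1 (c95848-g1) had -0.27 (SE 0.27). The adaptor DDB1 (c103886-g1) averaged 87.4 ± 3.79 CPM with tryptamine and 65.5 ± 5.17 CPM with DMSO, a log2 difference of 0.42 (SE 0.14, adjusted p = 0.174, edgeR). Of 4 genes named after FBXW8, the CUL7 partner named above, c103953-g2 had the smallest p and averaged 10.6 ± 2.34 CPM with tryptamine and 5.88 ± 1.302 CPM with DMSO, a log2 difference of 0.86 (SE 0.28, adjusted p = 0.164). The other FBXW8-named genes had 0.92 (c95253-g1), 0.94 (c95253-g2) and -0.45 (c37111-g2). After recovery the median was 0.05 and 0 passed with edgeR, while 6 had an unadjusted p under 0.05, beside 17.2% of all tested genes. Here limma-voom called 0 and DESeq2 called 1, where DESeq2 called 4.78% of all tested genes. There CUL1 (c104814-g1) averaged 162 ± 28.5 CPM with tryptamine and 121 ± 12.9 CPM with DMSO, a log2 difference of 0.42 (SE 0.13, adjusted p = 0.0845), and DDB1 had 0.40 (SE 0.14, adjusted p = 0.128).

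The RING-between-RING ligases, whose catalytic domain CUL9 shares, also gave 0 calls at 4 h among 20 tested genes with edgeR, DESeq2 and limma-voom. An unadjusted p under 0.05 was found for 4 of them, beside 11.7% of all tested genes, and the median of the 20 was 0.04. Their values at 4 h ran from -0.38 to 2.02. The upper end was RNF217 (c101927-g2), which averaged 197 ± 167 CPM in tryptamine sponges and 48.5 ± 25.4 CPM in DMSO sponges (adjusted p = 0.309, edgeR). Without tryptamine replicate 2 its log2 difference was 1.12. The other RNF217-named genes had 2.01 (c98050-g1), 0.67 (c102059-g1) and 0.44 (c94347-g1) at 4 h. The ANKIB1-named gene c91427-g1 averaged 15.6 ± 7.93 CPM with tryptamine and 6.55 ± 2.598 CPM with DMSO, a log2 difference of 1.25 (SE 0.38, adjusted p = 0.143). This value passed without tryptamine replicate 1 (log2 difference 1.60, adjusted p = 0.0203), and its adjusted p over all alternatives ran from 0.0203 to 0.403. The other ANKIB1-named genes had 1.11 (c53235-g2), 0.07 (c103283-g5), -0.06 (c104098-g1), -0.12 (c104098-g3) and -0.20 (c103014-g2) at 4 h. The gene ARIH1 (c102755-g1), which works with neddylated cullins in mammals, had 0.49 (SE 0.39). After recovery other ANKIB1-named genes had -0.51 (c104098-g3, SE 0.16, adjusted p = 0.0958) and -0.38 (c103283-g5, SE 0.16, adjusted p = 0.223).

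The list of ubiquitin and of activating and conjugating enzymes gave 0 calls among 31 tested genes at 4 h with edgeR, DESeq2 and limma-voom. An unadjusted p under 0.05 was found for 0 of them, beside 11.7% of all tested genes, and the median of the list was 0.03. It also holds SAE1, UBA2, UBE2M and UBE2F, enzymes for ubiquitin-like proteins such as NEDD8. The conjugating enzyme UBE2U (c95432-g1) had -0.71 (SE 0.37), with 0.909 ± 0.368 CPM with tryptamine and 1.496 ± 0.246 CPM with DMSO. After recovery the ubiquitin fusion gene RPS27A (c97940-g1) had 0.33 (SE 0.15, adjusted p = 0.266) and UBE2V1,TMEM189-UBE2V1,UBE2V2 (c49388-g1) had -0.38 (SE 0.14, adjusted p = 0.155, edgeR).

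The orthologous group of c97836-g1 is titled as an apoptosis inhibitor, so inhibitors of apoptosis and caspases were listed as well. Of 11 tested genes, 0 passed as higher and 1 as lower with tryptamine at 4 h, where 1.27% of all tested genes passed as lower. The list's median was -0.19. The lower gene was CASP2,CASP1 (c100053-g2), named after caspases that cut proteins in cell death and inflammation. At 4 h it had 32.7 ± 2.82 CPM with tryptamine and 67.3 ± 21.5 CPM with DMSO (log2 difference -1.04, SE 0.18, adjusted p = 0.00279, edgeR). Its tryptamine averages were 29.2 CPM at 1 h and 29.5 CPM after recovery. Its DMSO averages were 23.5 CPM at 1 h and 27.9 CPM after recovery, so its DMSO average at 4 h was the highest of the 6 groups. With the compared groups fitted alone its adjusted p was 0.0551, the highest of its alternatives, and the lowest was 1.1e-05. After recovery the median was -0.07, and 0 passed with edgeR, DESeq2 or limma-voom. An unadjusted p under 0.05 was found for 3 of the 11, beside 17.2% of all tested genes.

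Over the 7 lists together, 155 genes were tested, 5 genes standing on more than 1 list. At 1 h 0 of them passed with edgeR, DESeq2 or limma-voom, and 4 had an unadjusted p under 0.05, beside 6.44% of all tested genes. At 4 h 0 passed as higher with tryptamine and 1 as lower, 0.645% of the list genes, beside 1.5% of all tested genes. After recovery 1 passed as higher with tryptamine and 0 as lower, again 0.645%, beside 1.86% of all tested genes. With the replicate number as a block, 3 list genes and 563 genes of the table passed at 4 h, in place of 1 and 363. After recovery the order of the shares turned with the setting. DESeq2 and the block each called 12 list genes, 7.74% of them, beside 4.78% of all tested genes with DESeq2 and 5.51% with the block. The list medians lay between -0.19 and 0.09 at 4 h.

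**Figure D5:**
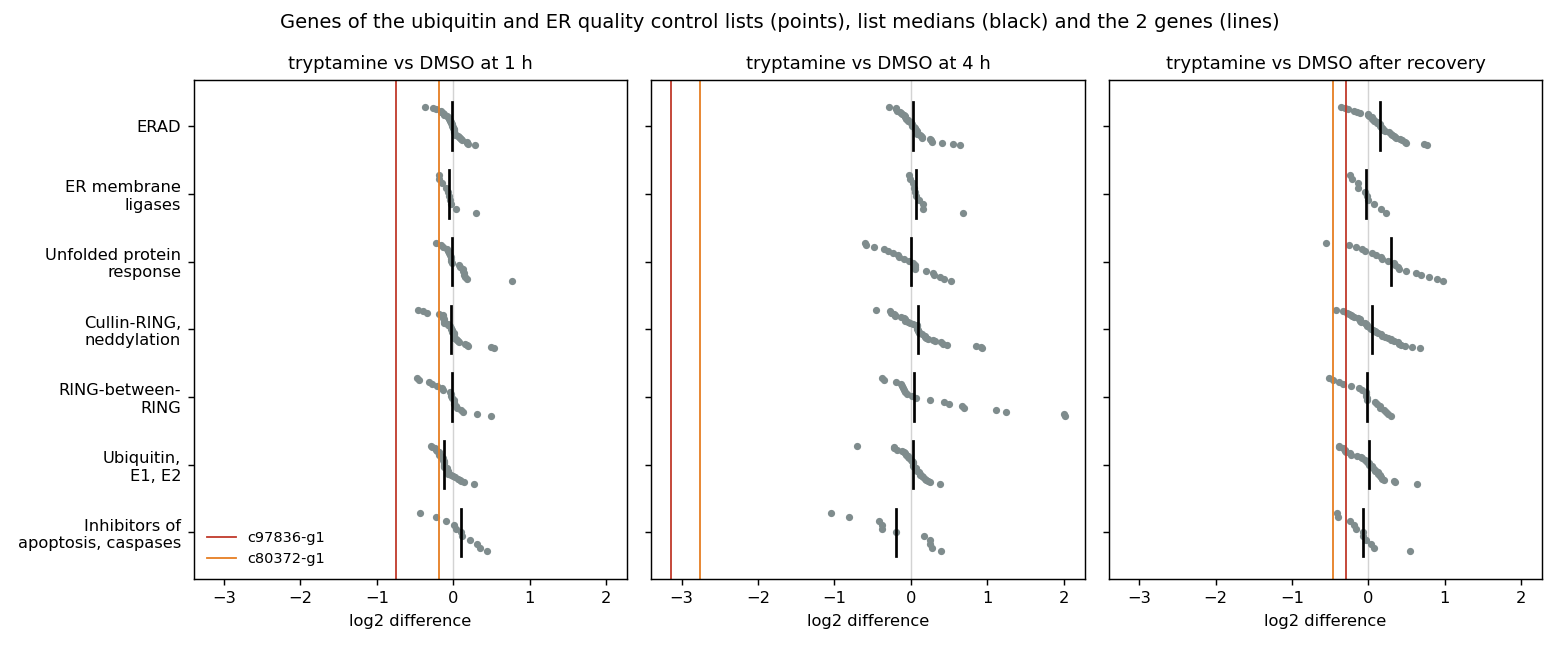
log2 differences (tryptamine minus DMSO) of the tested genes of 7 lists (grey points) with each list's median (black bar), at 1 h, at 4 h and after recovery; colored lines mark c97836-g1 and c80372-g1. At 4 h the list genes lie between -1.04 and 2.02. The lines at 4 h, -3.14 and -2.75, are values taken to have chosen those genes and are no comparison with the lists.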

How the data were processed

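The deposited values are unnormalized counts, in which the authors tallied read pairs for each gene. Per the file headers this was done with featureCounts 2.1.1 regardless of strand, for pairs with both ends mapped and not chimeric, and reads with several matches were skipped. Reads were aligned with STAR per the submitters' processing notes. Counting ran over a transcriptome assembly, not a genome. Of 39562 genes, 4925 had 0 counts. Genes were filtered with filterByExpr and scaled by TMM, and edgeR 4.0.16 fitted 1 robust quasi-likelihood model to all 6 groups in R 4.3.3 (12 residual degrees of freedom), with Benjamini-Hochberg adjustment over 24125 genes at 0.05. The scripts were tested on simulated data. Correlations used log2(CPM + 0.5).

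The members and gene lists were chosen with earlier results of these data known. Genes named from a list are those that passed, otherwise the 2 with the smallest p at 4 h and after recovery, and core partners of synoviolin and cullins, and some genes that this rule names are not reported here. The other settings tried were DESeq2 1.42.0, limma-voom (limma 3.58.1), scaling by median of ratios, a stricter filter or none, dispersions fitted without robustness, the compared groups alone, a replicate block, each library left out and, added after seeing the data, a length trend removed. Same-numbered libraries deviated together in the tryptamine and DMSO groups of 1 h (r 0.362 to 0.458) and 4 h (0.140 to 0.215). They also did so in tryptamine recovery and 1 h (0.189 to 0.212), tryptamine 4 h and 1 h (0.255 to 0.491) and DMSO 4 h and 1 h (0.198 to 0.302). These groups were taken as paired from the data, not the labels. The main model holds no replicate term, so its p-values do not use this pairing, which only the replicate block does.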

Additional observations from a re-analysis of the deposited data

How the results depend on the processing

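The 4 h differences of c97836-g1 and c80372-g1 carry no test and are taken to have chosen the genes, so their kept direction is no finding. The tested differences of these genes kept their direction under every alternative. They also kept their side of the threshold, except that c80372-g1 in DMSO recovery against DMSO 1 h passed in some settings. These were DESeq2 (log2 difference 1.18), the replicate block (1.23) and the compared groups alone (1.20). The replicate numbers do not pair DMSO recovery with DMSO 1 h (r -0.03 to 0.22), nor tryptamine with DMSO after recovery (0.0964 to 0.320). Genes passing between tryptamine and DMSO after recovery numbered 449, against 1154 with DESeq2, 1329 with the replicate block, and 0 to 466 with 1 library left out (131 without tryptamine replicate 1, 1 without tryptamine replicate 2, 0 without DMSO replicate 1, 136 without DMSO replicate 2, 2 without DMSO replicate 3). At 4 h 363 became 606 with DESeq2, 563 with the block and 228 without DMSO replicate 2. At 1 h 0 became 5 without DMSO replicate 3. For DMSO recovery against 1 h, 129 became 475 (DESeq2), 540 (block), 742 (groups alone) and 6 to 93 with 1 library left out. For tryptamine recovery against 1 h, 70 became 503 (DESeq2), 45 (limma-voom), 4 (groups alone) and 1 to 567 with 1 library left out. List genes passing after recovery numbered 1, against 12 with DESeq2 and with the replicate block, 0 with median-of-ratios scaling and with non-robust dispersions, 2 with the groups alone, and 0 to 4 with 1 library left out. At 4 h the 1 became 3 with DESeq2 and with the block, 2 with the length trend removed, 0 with the groups alone and 1 to 3 with 1 library left out. The cause was not tested.

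Differences near 0 changed sign with 1 library left out: c100712-g1 at 4 h (-0.30 to 0.033) and in DMSO 4 h against 1 h (-0.23 to 0.047), c101895-g2 at 1 h (-0.16 to 0.088) and 4 h (-0.19 to 0.17), c102386-g2 at 1 h (-0.081 to 0.027), and at 4 h UBE2J1 (-0.22 to 0.025), UBE2G2 (-0.043 to 0.19), VCP-named c101982-g1 (-0.25 to 0.038), HERPUD2,HERPUD1 (-0.20 to 0.57), SEL1L,SEL1L2 (-0.16 to 0.073), RNF185,RNF5 (-0.074 to 0.31) and ARIH1 (-0.13 to 0.88). With 3 libraries a group, the 95% intervals at 4 h were -0.33 to 0.19 for c102386-g2, -0.39 to 0.31 for c101895-g2 and -0.55 to 0.21 for c100712-g1. Differences within each gene's interval are left undecided. The intervals are no limit of detection after adjustment: RNF170 at 4 h had a log2 difference of 0.68 (SE 0.18) and did not pass with edgeR.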
